A study of Mus musculus with 10 samples.

Results

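The IFIT family (interferon-induced proteins with tetratricopeptide repeats) was followed across bone marrow-derived macrophages (BMDM) of C57BL/6 mice. Its members were the rows of the deposited gene tables whose Ensembl identifiers map to the symbols Ifit1, Ifit1bl1, Ifit2, Ifit3 and Ifit3b. These were 5 of the 45318 genes in the table, with 1 row each, and all 5 passed the filter on low values. The rule uses no measured value.

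The series compared macrophages labelled WT with macrophages labelled Tlr4-/-, deficient in the receptor for bacterial lipopolysaccharide. Untreated cells of either genotype formed a group each. A control group of either genotype was collected after 6 h in medium with 5% FBS and 2% BSA. The last group held Tlr4-/- macrophages pre-treated with Poly(I:C), a synthetic mimic of viral double-stranded RNA. The dose and duration of Poly(I:C), the medium of the untreated cells and the age of the mice are not given in the labels, and Poly(I:C) in wild-type cells was not analysed here. Each of the 5 groups had 2 libraries. The labels do not say whether these came from separate mice or cultures, so the spread behind each p-value may be technical only.

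IFIT proteins are made of tandem helical repeats and are among the most strongly interferon-induced products of mammalian cells. IFIT1 binds RNA whose cap lacks ribose methylation, a mark by which viral RNA is told from the cell's own, and keeps it from being translated. Human IFIT2 and IFIT3 join IFIT1 in complexes, and human IFIT3 stabilises IFIT1. Type I interferon reaches these genes through its receptor, the kinases JAK1 and TYK2, and the ISGF3 complex, which binds interferon-stimulated response elements (ISREs). Double-stranded RNA leads to interferon through TLR3 and its adaptor TRIF or through the cytosolic helicases RIG-I and MDA5, and TLR4 uses TRIF as well.

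In the GENCODE M21 annotation of GRCm38, the 5 genes lie in a cluster of 99.3 kb on chromosome 19, from 34550694 to 34650009, with a sixth family gene, Ifit1bl2, between Ifit3b and Ifit1. No source used here gives the authors' build, so the coordinates are those of that annotation. Ifit2 (ENSMUSG00000045932, 34550694 to 34576419), Ifit3 (ENSMUSG00000074896, 34583531 to 34588731), Ifit3b (ENSMUSG00000062488, 34607970 to 34613401) and Ifit1 (ENSMUSG00000034459, 34640871 to 34650009) run on the plus strand. Ifit1bl1 (ENSMUSG00000079339, 34592891 to 34601956) and Ifit1bl2 (ENSMUSG00000067297, 34617049 to 34640743) run on the minus strand. Ifit1 and Ifit1bl2 are divergent, and their annotated starts lie 128 bases apart.

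All 5 members had at least 1 window in the RefSeq promoter table (GRCm38.p6), which spans 300 bases around each start site. The stretches below, all from chromosome 19, are shown because the members rose together and all but Ifit2 carried an ISRE core in these windows. They lie upstream of the start, leave out annotated exons, and read 5′ to 3′ on the strand of their gene. Capitals mark the ISRE core, searched on both strands as GAAA, any 2 bases and GAAA again. Every core marked below appears as the reverse complement of these letters.
Ifit1 (chr19:34640744-34640870, plus strand): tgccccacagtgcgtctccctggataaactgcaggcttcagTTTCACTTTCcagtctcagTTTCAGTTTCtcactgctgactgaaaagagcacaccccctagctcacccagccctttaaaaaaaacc
Ifit3 (chr19:34583329-34583528, plus strand): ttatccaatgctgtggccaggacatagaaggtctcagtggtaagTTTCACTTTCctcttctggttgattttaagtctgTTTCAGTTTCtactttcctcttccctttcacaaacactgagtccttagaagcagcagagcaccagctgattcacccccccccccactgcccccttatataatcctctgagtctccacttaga
Ifit3b (chr19:34607757-34607956, plus strand): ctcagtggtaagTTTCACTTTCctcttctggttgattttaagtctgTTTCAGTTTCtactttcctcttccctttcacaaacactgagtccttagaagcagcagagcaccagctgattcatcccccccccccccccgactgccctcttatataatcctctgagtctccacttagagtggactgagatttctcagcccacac
Ifit1bl1 (chr19:34601969-34602168, minus strand): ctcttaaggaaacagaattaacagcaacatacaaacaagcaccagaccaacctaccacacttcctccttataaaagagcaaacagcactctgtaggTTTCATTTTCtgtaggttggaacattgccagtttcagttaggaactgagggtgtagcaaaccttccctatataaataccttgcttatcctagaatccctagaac
Ifit2 (chr19:34550494-34550693, plus strand): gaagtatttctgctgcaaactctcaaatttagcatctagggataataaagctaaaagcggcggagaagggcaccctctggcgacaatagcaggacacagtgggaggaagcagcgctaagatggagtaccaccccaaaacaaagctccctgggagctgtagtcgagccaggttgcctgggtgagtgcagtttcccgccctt

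Ifit1, Ifit3 and Ifit3b each held 2 ISRE cores, spelled TTTCACTTTC and TTTCAGTTTC in all 3 genes. Their first bases lay at -104 and -85 from the RefSeq start of Ifit1, at -156 and -122 from that of Ifit3, and at -188 and -154 from that of Ifit3b. Ifit1bl1 has 2 RefSeq windows with 1 core each, spelled TTTCATTTTC. Neither of the 2 windows of Ifit2 held the letters, which says only that they are not in these windows. Of all 32851 mouse windows of the same length, 3.44% held at least 1 core. The gamma-activated site (GAS), TTCNNNGAA, which reads the same on both strands, occurred in 1 of the 2 Ifit2 windows, in no window of the other members and in 8.3% of all windows. The 127 bases printed for Ifit1 are all that separates it from Ifit1bl2, so both divergent genes have the same 2 cores upstream. A match is a description of letters, not a shown binding site.

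The copies are close enough for reads to be shared between some of them. The coding sequences of Ifit3 and Ifit3b are 99.1% identical, and 41.1% of the 75-base windows of Ifit3 transcripts also occur in Ifit3b. The authors' counting may therefore have divided such reads between the 2 genes, and their separate levels are uncertain. The coding sequences of Ifit1 and Ifit1bl1 are 73.2% identical and share 0% of these windows. Ifit2 shares none with any other family gene.

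Deposited totals ranged from 25.2 to 51.7 M units a library and were highest in the WT control and Tlr4-/- Poly(I:C) groups. The values are reads rescaled by the authors, so levels are given as normalised CPM, each library scaled to its total with a trimmed mean of M values (TMM) factor. Replicates correlated at 0.992 to 0.994 over the 13171 tested genes. Tlr4 transcript was present under both labels, at 60.1 and 69.1 CPM in WT untreated and 44.4 and 44.9 in Tlr4-/- untreated libraries, a log2 difference of -0.53 (limma, adjusted p = 0.346). In control medium it stood at 32.3 and 39.0 CPM under the WT label and 30.8 and 34.6 under the Tlr4-/- label, a log2 difference of -0.12 that changed sign to 0.37 with scaling by totals alone and to 0.02 without WT control replicate 2. A count per gene does not show whether a deleted part was read, so these values do not check the genotype, and every genotype below is the one on the label. The 8 macrophage markers summed to 23500 to 27700 CPM in the 10 libraries, most of it Lyz2, with 8 of 8 above 1 CPM in every group. Of these, Fcgr1 and Cd14 moved with the IFIT genes, by 2.19 and 2.68 (log2) in WT control against untreated, -3.08 and -2.33 in Tlr4-/- against WT control and 3.64 and 1.65 for Poly(I:C) against control. Called the other way were Mertk, at -0.90 and 0.82 in the first 2 of these comparisons, and Csf1r, at 0.26 and -0.56 in the last 2. Also called in the directions of the IFIT genes were Itgam, at -0.61 and 0.64 in the last 2, and Cd68, at 0.30 in the last. Adgre1 (0.54) and Csf1r (0.33) were so called in the first. Neutrophil markers summed to 16.4 to 37.4 CPM in the untreated and Tlr4-/- control libraries, 85.1 and 114 in WT control and 100 to 106 in Tlr4-/- Poly(I:C), with 7 of 9 above 1 CPM in these last groups and Ly6g at most at a mean of 0.169. The dendritic cell list summed to 173 to 316 CPM in the untreated and Tlr4-/- control libraries and to 650 to 1040 in the others, most of it Bst2. Of its 4 tested genes Bst2 and Ccr9 were called in the directions of the IFIT genes in all 3 of those comparisons (Ccr9 at 2.17, -2.80 and 2.91) and Xcr1 after Poly(I:C) only (1.68), while Zbtb46 was called in none and Siglech, not tested, averaged 0.0289 CPM or less in every group. T and NK cell markers summed to at most 0.292 CPM in the untreated and Tlr4-/- control libraries and to 1.61 to 2.03 in the others, most of it Cd247 (3.60, -3.51 and 3.68), with Cd3e, Ncr1 and Gzma at 0 in all 10 libraries. Stromal markers summed to 3.66 to 6.22 CPM in the untreated and Tlr4-/- control libraries, 12.8 and 16.3 in WT control and 7.64 and 9.84 after Poly(I:C). Among them Pdgfrb (3.86, -3.35 and 2.30) and Dcn were called each time and the 3 collagen genes never. B cell markers summed to at most 0.227 CPM, and erythroid and platelet markers, most of it Pf4, to 218 and 237 in Tlr4-/- control and 312 to 522 in the other libraries. Ccr9, Cd247 and Dcn passed the filter only through WT control and Poly(I:C) libraries and Xcr1 only through Poly(I:C), so that their calls follow in part from the filter. In those 3 comparisons the neutrophil, dendritic, T and NK and stromal lists and some macrophage markers thus moved in part with the IFIT genes. Called in the directions of the IFIT genes were 4, 3 and 4 of the 8 macrophage markers. Of 7 tested neutrophil markers 5, 6 and 6 were. The shares of all tested genes called in these directions were 33.1%, 30.2% and 32.5%. Elsewhere the directions were mixed. In Tlr4-/- control against untreated cells the neutrophil median was -0.69, Fcgr1 stood at -0.45 and Cd14 at 0.48. For Poly(I:C) against WT control, Cd14 (-0.68) and Pdgfrb (-1.04) were called lower, and Fcgr1 (0.56) and Xcr1 (1.34) higher. The part of these markers in the results was not tested. In bulk RNA, fewer cells expressing a gene and less RNA per cell cannot be told apart.

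The members differed among groups by up to 575-fold in mean CPM, and all 5 had the same order of groups. From low to high by mean CPM this was Tlr4-/- untreated, WT untreated, Tlr4-/- control, WT control and Tlr4-/- Poly(I:C). Neighbouring groups did not overlap for Ifit1, Ifit1bl1 and Ifit3b, which held in the same order for 1.09% of all tested genes. For Ifit2 and Ifit3 the libraries of WT untreated and Tlr4-/- control overlapped, so these 2 groups have no settled order for those genes.

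Ifit1, the RNA cap sensor, stood at 44.4 and 53.3 CPM in WT untreated cells and at 26.0 and 33.0 in Tlr4-/- untreated cells. In control medium it reached 1159 and 1614 CPM in WT and 83.3 and 109 in Tlr4-/- cells. After Poly(I:C) the 2 Tlr4-/- libraries held 3574 and 4179 CPM. The 2 Tlr4-/- control libraries thus lay above all 4 untreated ones and far below both WT control libraries.

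Ifit1bl1, an Ifit1-like gene, had the lowest CPM of the members in all groups but Poly(I:C), where Ifit3b was lower, and the widest range. It stood at 2.63 and 2.12 CPM in WT untreated and 1.18 and 1.69 in Tlr4-/- untreated libraries. WT control libraries held 196 and 264 CPM and Tlr4-/- control libraries 7.23 and 8.18. After Poly(I:C) it reached 766 and 882 CPM. Its 4 untreated values were the lowest of any member in any group.

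Ifit2 gave the highest CPM of the family in every group. The values were 143 and 211 in WT untreated, 78.6 and 113 in Tlr4-/- untreated, 3021 and 4102 in WT control, 173 and 223 in Tlr4-/- control and 7286 and 9367 in Tlr4-/- Poly(I:C) libraries. Ranked by mean signal among all genes, Ifit2 moved from place 787 in WT untreated to 27 in WT control cells, and from place 1697 in Tlr4-/- untreated to 716 in Tlr4-/- control cells and 12 after Poly(I:C).

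Ifit3, whose human counterpart joins IFIT1 in complexes, stood at 92.2 and 116 CPM in WT untreated, 49.4 and 70.8 in Tlr4-/- untreated and 114 and 160 in Tlr4-/- control libraries. It reached 1531 and 2059 CPM in WT control and 3423 and 3626 after Poly(I:C). Ifit3b, its near-identical copy, stood at 16.9 and 18.96 CPM in WT untreated, 8.77 and 13.3 in Tlr4-/- untreated, 284 and 379 in WT control, 22.8 and 31.6 in Tlr4-/- control and 723 and 756 after Poly(I:C). Both genes thus separated the WT control and Poly(I:C) libraries from the other 6 by a wide margin.

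**Figure D1:**
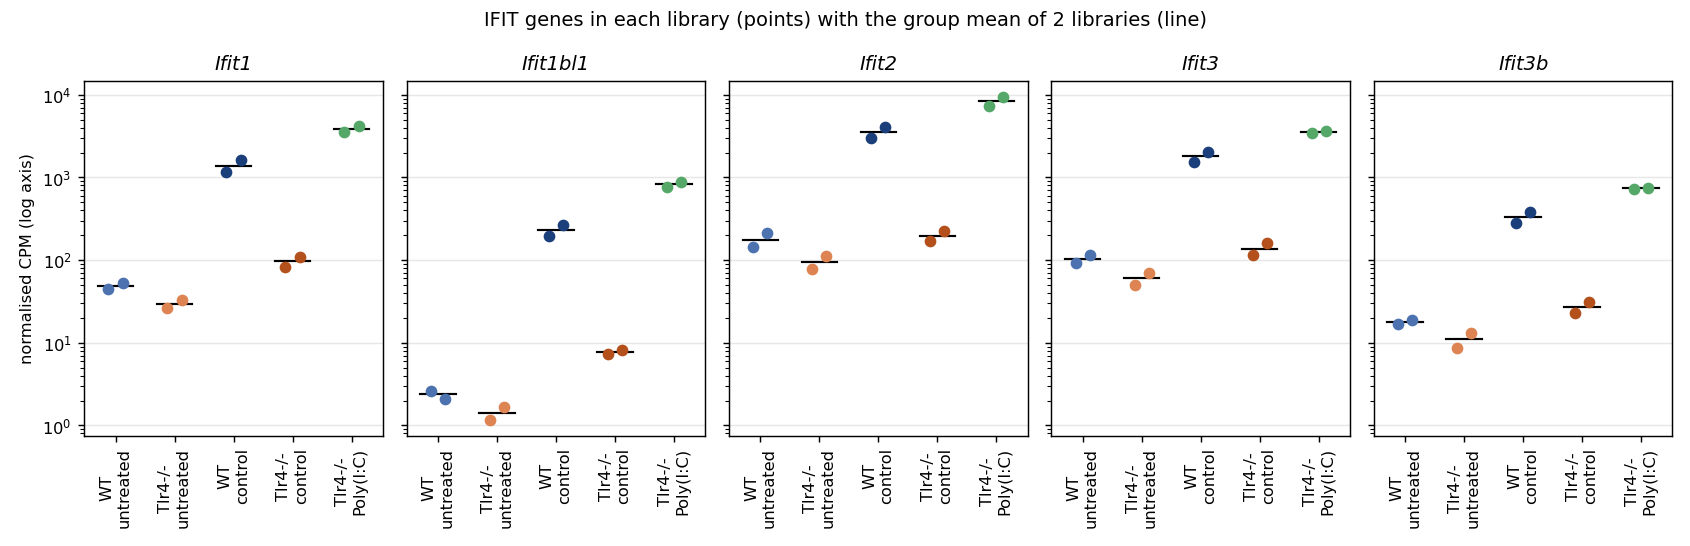
Normalised CPM (log axis) of the 5 IFIT genes in each library; points are libraries, lines the mean of the 2 libraries of a group. In every panel the WT control and Tlr4-/- Poly(I:C) points lie apart from the other 3 groups, and for Ifit1 they run from 1159 to 4179 CPM against 26.0 to 109.

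Divided by exon length, the order of levels between members was Ifit3, Ifit2, Ifit1, Ifit3b and Ifit1bl1 in 4 of the 5 groups. In WT control cells Ifit3 stood at 1029 ± 214 (SD, n = 2) and Ifit2 at 907 ± 195 CPM per kb. Ifit3 was the higher in each library, at 877.6 against 769.3 and 1180 against 1044. After Poly(I:C) Ifit2 stood at 2120 ± 375 CPM per kb and Ifit3 at 2020 ± 82.5, and their order differed between the 2 libraries. The order of Ifit3b at 369.7 ± 11.8 and Ifit1bl1 at 364.4 ± 36.2 also differed between these libraries. The last pair was far apart in untreated WT cells, at 8.96 ± 0.734 and 1.05 ± 0.161 CPM per kb. The 5 genes together held 0.0421% ± 0.0077 (SD, n = 2) of the deposited signal in WT untreated and 0.0237% ± 0.0054 in Tlr4-/- untreated cells. Their share was 0.607% ± 0.11 in WT control, 0.0543% ± 0.01 in Tlr4-/- control and 1.23% ± 0.14 in Poly(I:C)-treated cells.

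Whether the genotype labels differed before any treatment was asked in untreated cells. All 5 IFIT means were lower under the Tlr4-/- label, by 1.63-fold (Ifit3b) to 1.85-fold (Ifit2), and the libraries of the 2 groups did not overlap for any of them, as for 17.5% of all tested genes in this direction. None of these differences passed the test. Log2 differences ran from -0.88 to -0.70 with a median of -0.73, beside -0.007 over all tested genes, and adjusted p from 0.327 to 0.361 (limma with trend, Benjamini-Hochberg over 13171 genes). The unadjusted p was under 0.05 for all 5, as for 1146 of all tested genes. Of all tested genes, 0.167% were called in either direction, 11 higher and 11 lower, which was 12 and 19 with scaling by totals alone. Fitted with the replicate number as a block, 4 of the 5 members were called lower, but the numbers are not known to pair the libraries. Among the other antiviral effectors, 1 of 20 tested genes was called, lower in Tlr4-/- cells. It was Cmpk2, a mitochondrial nucleotide kinase, named here after its values were seen, at 39.7 and 42.7 CPM in WT and 20.3 and 21.9 in Tlr4-/- cells (log2 difference -0.96, SE 0.13, limma, adjusted p = 0.0225). Its call was lost in 10 of 22 alternatives, among them leaving out any of the 4 untreated libraries (adjusted p = 0.0588 to 0.141) or either Poly(I:C) library (0.0628 and 0.0636).

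Cells after 6 h in the control medium were set against untreated cells of the same genotype. In WT cells all 5 IFIT genes rose, Ifit1bl1 by 96.9-fold, Ifit1 by 28.4-fold, Ifit2 by 20.1-fold, Ifit3b by 18.5-fold and Ifit3 by 17.3-fold in mean CPM. All 5 members were called higher, where 33.1% of all tested genes were. Log2 differences were 6.53 (SE 0.19) for Ifit1bl1, 4.81 (SE 0.19) for Ifit1 and 4.10 to 4.34 for the others, with adjusted p from 3.12e-09 to 1.66e-07 (limma). The members' median was 4.34, beside -0.005 over all tested genes. Of all calls in this comparison 50.2% were rises, and 22.8% with scaling by totals alone. By size of rise Ifit1bl1 held place 19 of the tested genes and the other 4 places 87 to 145.

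In Tlr4-/- cells the same medium went with smaller rises of all 5 members. Mean CPM was higher by 5.38-fold for Ifit1bl1, 3.26-fold for Ifit1, 2.47-fold for Ifit3b, 2.28-fold for Ifit3 and 2.07-fold for Ifit2. All 5 were called higher, with log2 differences of 1.06 (Ifit2, SE 0.24, adjusted p = 0.0128) to 2.37 (Ifit1bl1, SE 0.19, adjusted p = 5.91e-05), where 10.9% of tested genes were called higher (limma). The median was 1.31, beside 0.004 over all tested genes. Ifit2 was no longer called without Tlr4-/- control replicate 2 (adjusted p = 0.105) or without Tlr4-/- untreated replicate 1 (adjusted p = 0.0863). Ifit1bl1 held place 15 and Ifit1 place 64 among all tested genes by size of rise in this comparison.

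Directly compared in control medium, all 5 members were lower under the Tlr4-/- label, and the libraries did not overlap for any of them, as for 39.5% of all tested genes in this direction. The WT mean exceeded the Tlr4-/- mean by 29.9-fold for Ifit1bl1, 18.0-fold for Ifit2, 14.4-fold for Ifit1, 13.1-fold for Ifit3 and 12.2-fold for Ifit3b. All 5 were called lower, where 30.2% of tested genes were, with log2 differences from -4.87 (Ifit1bl1, SE 0.19) to -3.61 (Ifit3b, SE 0.21), a median of -3.84 beside 0.032 over all tested genes, and adjusted p from 2.13e-08 to 2.68e-07 (limma). Of all calls 50.6% were higher in Tlr4-/- cells, which became 78.7% with scaling by totals alone and 37.5% with the deposited scaling kept.

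The difference between the 2 responses was tested as the interaction of genotype and control medium. All 5 members were called lower, meaning that they rose less in Tlr4-/- than in WT cells, where 23.7% of tested genes were. The term was -4.17 (SE 0.27) for Ifit1bl1, -3.28 (SE 0.34) for Ifit2, -3.11 (SE 0.26) for Ifit1, -2.91 (SE 0.30) for Ifit3 and -2.88 (SE 0.29) for Ifit3b on the log2 scale, with adjusted p from 1.8e-06 to 3.65e-05 (limma). The members' median was -3.11 beside 0.037 over all tested genes. Of all calls 48.2% were positive, 79.4% with scaling by totals alone and 35% with the deposited scaling kept.

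Poly(I:C) was analysed in cells of the Tlr4-/- label only. Its dose and duration are not given in the labels, and no medium is recorded for these cells here. The comparisons with them may therefore also differ in medium and time. Against Tlr4-/- control medium, mean CPM rose 107-fold for Ifit1bl1, 42.1-fold for Ifit2, 40.3-fold for Ifit1, 27.2-fold for Ifit3b and 25.7-fold for Ifit3. All 5 members were called higher, where 32.5% of tested genes were, with log2 differences of 4.70 (Ifit3, SE 0.21) to 6.72 (Ifit1bl1, SE 0.19), a median of 5.34 beside -0.065 over all tested genes, and adjusted p from 1.83e-09 to 2.82e-08 (limma). Of all calls 46.8% were rises, 19% with scaling by totals alone and 58.1% with the deposited scaling kept.

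Against Tlr4-/- untreated cells, which share the Poly(I:C) libraries with the comparison above, all 5 members were again called higher, where 34.5% of tested genes were. The fold of means was 575 for Ifit1bl1, 131 for Ifit1, 87 for Ifit2, 67.1 for Ifit3b and 58.7 for Ifit3, and the log2 differences ran from 5.90 to 9.09 with a median of 6.45 beside -0.038 over all tested genes. Ifit1bl1 had the ninth largest rise of all tested genes, at 9.09 (SE 0.19, adjusted p = 2.24e-10, limma). Of all calls 47.8% were rises, and 20.3% with scaling by totals alone.

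The highest groups were also set against each other, Poly(I:C)-treated Tlr4-/- cells against WT cells in control medium, which differ in both genotype label and treatment. All 5 members were higher in the former, by 3.58-fold for Ifit1bl1, 2.80-fold for Ifit1, 2.34-fold for Ifit2, 2.23-fold for Ifit3b and 1.96-fold for Ifit3. All 5 were called higher, where 11.9% of tested genes were, with log2 differences of 0.99 to 1.85, a median of 1.23 beside -0.026 over all tested genes, and adjusted p from 0.000312 to 0.00865 (limma). Without Tlr4-/- Poly(I:C) replicate 2 or without WT control replicate 1, 3 of the 5 were called, with adjusted p up to 0.0609 and 0.0815. Of all calls 49.9% were higher in the Poly(I:C) cells, and 15.3% with scaling by totals alone.

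**Figure D2:**
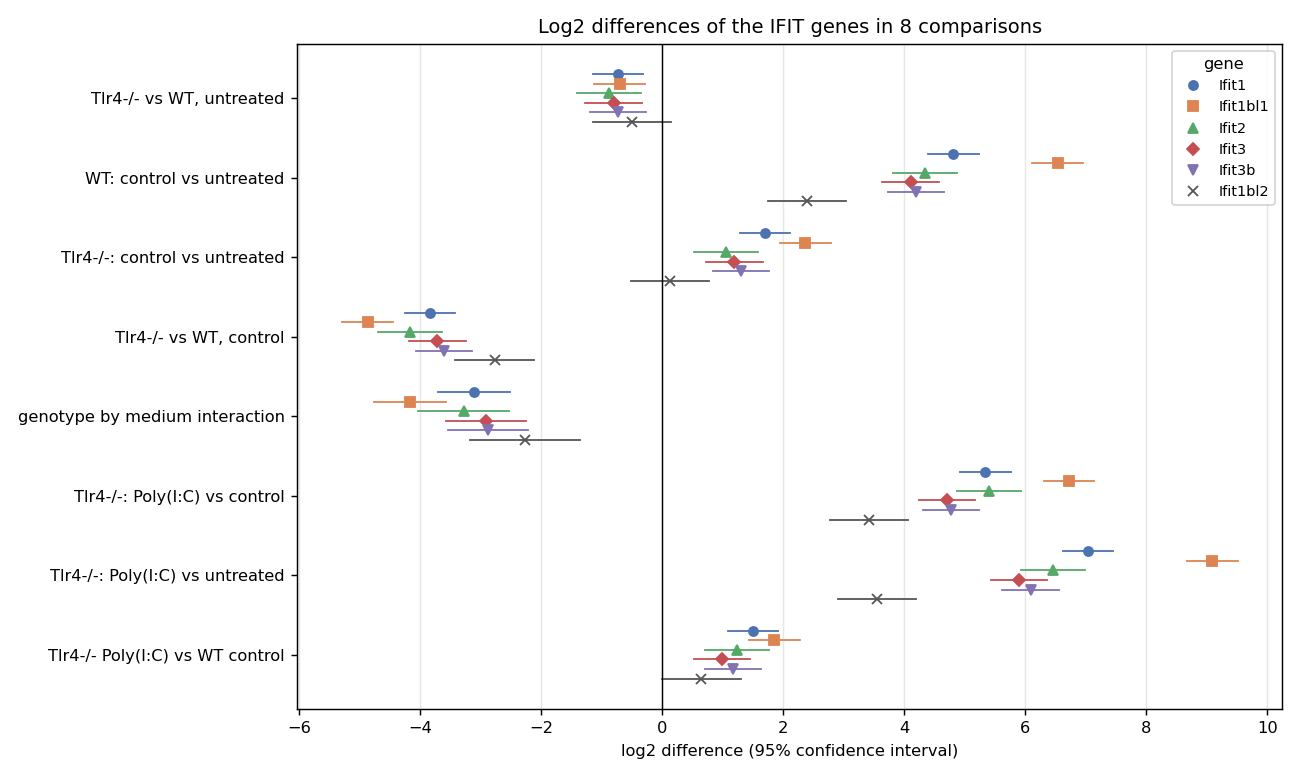
Log2 differences with 95% confidence intervals for the 5 IFIT genes and Ifit1bl2 in the 8 comparisons; the interaction is the Tlr4-/- response to the control medium minus the WT response. Ifit1bl1 has the most extreme point in 7 of the 8 comparisons drawn, and the 5 members lie on one side of 0 in each.

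Within the family the proportions shifted between some genes and hardly between others. Ifit1bl1 stood at 5.92 and 3.97 per 100 units of Ifit1 signal in WT untreated, 4.52 and 5.10 in Tlr4-/- untreated, and 8.68 and 7.48 in Tlr4-/- control libraries. It reached 16.9 and 16.4 per 100 in WT control and 21.4 and 21.1 after Poly(I:C). The 5 groups of this ratio did not overlap except the 2 untreated ones, and no test was run on it.

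Ifit3b stood at 16.4 to 21.1 per 100 units of Ifit3 in all 10 libraries, while Ifit3 itself ranged from 49.4 to 3626 CPM. Because these copies share reads, this ratio cannot be told apart from a fixed division of shared reads by the counting. Ifit1 stood at 25.3 to 33.2 per 100 units of Ifit2 in the 4 untreated libraries, 38.4 and 39.3 in WT control, 48.2 and 49.1 in Tlr4-/- control and 49.1 and 44.6 after Poly(I:C). The untreated libraries thus had the least Ifit1 for their Ifit2.

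**Figure D3:**
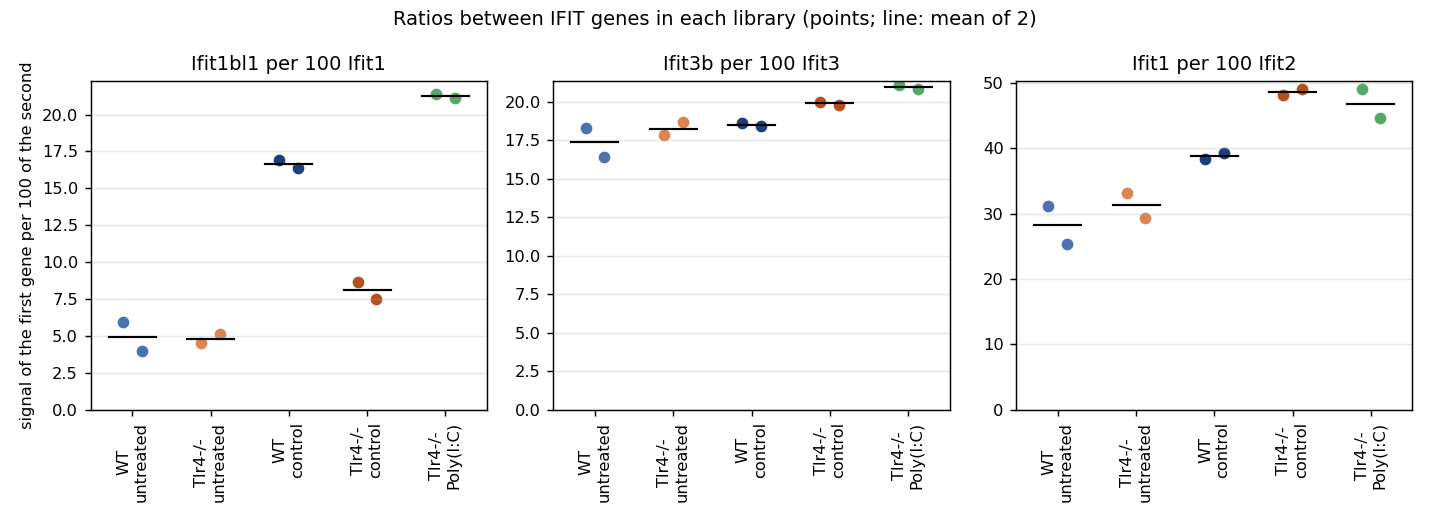
Signal of one IFIT gene per 100 units of another in each library (points) with the mean of 2 (line), axes from 0. Ifit1bl1 per 100 Ifit1 runs from 3.97 to 21.4 between libraries, and Ifit3b per 100 Ifit3 from 16.4 to 21.1.

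Ifit1bl2, which the rule does not include, was barely detected. It stood at 0.626 and 0.397 CPM in WT untreated, 0.294 and 0.357 in Tlr4-/- untreated, 2.74 and 3.40 in WT control, 0.264 and 0.487 in Tlr4-/- control and 4.88 and 4.81 after Poly(I:C). It rose in WT control cells (log2 2.39, SE 0.29, adjusted p = 4.53e-05) and after Poly(I:C) against Tlr4-/- control (log2 3.42, SE 0.29, adjusted p = 2.79e-06, limma). In Tlr4-/- cells its log2 difference between control and untreated was 0.12 (SE 0.29, adjusted p = 0.809), and -0.22 without Tlr4-/- control replicate 2. Per 100 units of Ifit1, with which it shares its upstream stretch, Ifit1bl2 stood at 0.744 to 1.41 in untreated libraries and at 0.136 and 0.115 after Poly(I:C).

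The genes beside the cluster did not move as one block with it. Of 6 flanking genes, 3 on each side, 5 were tested. In WT control against untreated cells 2 were called higher and 3 lower, and so they were for Poly(I:C) against control in Tlr4-/- cells. Over all 13171 tested genes, 4357 were called higher and 4315 lower in the first comparison, and 4279 and 4860 in the second. Ch25h, the enzyme that makes 25-hydroxycholesterol and a known interferon-induced gene 75.5 kb from the cluster, rose from 0.626 and 0.397 CPM in WT untreated to 59.2 and 63.7 in WT control libraries (log2 6.68, SE 0.48, adjusted p = 1.05e-06). It stood at 2.74 and 1.98 CPM in Tlr4-/- control and at 175 and 157 after Poly(I:C) (log2 6.09, SE 0.48, adjusted p = 1.62e-06, limma). Fas, a death receptor, rose by 1.13 and 1.75 on the log2 scale in the same comparisons. Lipa, the lysosomal acid lipase that lies between Ch25h and the cluster at 23.2 kb from it, fell by 1.23 and 0.94. On the other side Pank1, a coenzyme A synthesis kinase, and Kif20b, a mitotic kinesin, fell by 3.99 and 2.11 in WT control cells. These 2 are named after their values were seen. Pank1 averaged 4.43 CPM in WT untreated, 0.187 in WT control and 0.143 after Poly(I:C). It passed the filter only through untreated and Tlr4-/- control libraries, so that its calls follow in part from the filter.

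**Figure D4:**
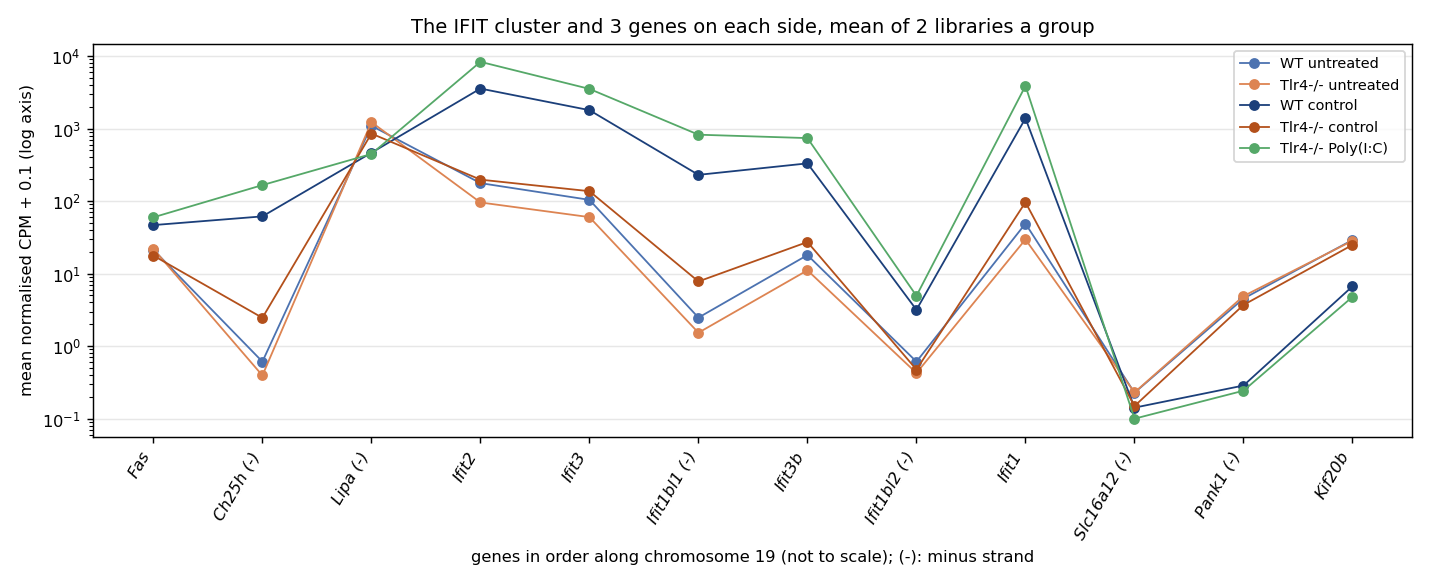
Mean normalised CPM plus 0.1 (log axis, 2 libraries a group) of the 6 cluster genes and 3 flanking genes on each side, in chromosomal order and not to scale. The IFIT genes, Ch25h and Fas are highest after Poly(I:C) and next in WT control, whereas Lipa, Pank1 and Kif20b are lowest in these groups.

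Around the family, the genes of its pathway were taken from lists of ligands, receptors, sensors, feedback genes and fellow effectors. Beside the counts in these and later lists, 33.1% of all tested genes were called higher in WT control against untreated. The share called higher was 32.5% for Poly(I:C) against control and 10.9% for Tlr4-/- control against untreated cells. Called lower in Tlr4-/- than in WT control were 30.2%. Of 15 interferon ligands, 3 passed the filter. Ifnb1, which encodes interferon beta, stood at 0 and 0.0993 CPM in WT untreated and at 0 in both Tlr4-/- untreated libraries. It stood at 0.923 and 1.46 CPM in WT control, 0.066 and 0 in Tlr4-/- control and 33.2 and 29.3 after Poly(I:C). Ifnb1 was called higher in WT control against untreated (adjusted p = 5.29e-05), lower in Tlr4-/- than in WT control (adjusted p = 4.79e-05) and higher after Poly(I:C) against control (adjusted p = 5.46e-08, limma). Its mean was thus 31.2 ± 2.71 CPM (SD, n = 2) after Poly(I:C) and 1.19 ± 0.383 in WT control, groups between which the IFIT genes differed by 3.58-fold or less. Ifnb1 passed the filter only through WT control and Poly(I:C) libraries, so that its calls in them follow in part from the filter. The 2 other ligands tested, Ifna2 and Ifna5, of a family of near copies, passed it only through the Poly(I:C) libraries. They stood there at 0.617 and 1.1 CPM and at 0.529 and 0.467 CPM, and at 0.0299 or less in the other 8 libraries, and their calls are not counted here.

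All 10 genes of the receptor and signalling list were tested. In WT control against untreated cells 9 were called higher and 1 lower, with a median of 1.10 beside -0.005 over all tested genes, and the same counts held for Poly(I:C) against control in Tlr4-/- cells with a median of 1.08. The receptor chains Ifnar1 and Ifnar2 rose by 1.03 (SE 0.07) and 0.74 (SE 0.07) in WT control cells on the log2 scale, and Ifngr1, a chain of the interferon gamma receptor, fell by 0.89 (SE 0.07). Stat2 and Irf9, which act in ISGF3 and are named after their values were seen, rose by 2.25 (SE 0.16) and 0.89 (SE 0.11). In Tlr4-/- control against untreated cells 3 of the 10 were called higher and 1 lower, with a median of 0.13. Stat2 stood at 0.13 (adjusted p = 0.609, limma). With scaling by totals alone 6 genes rather than 9 were called higher after Poly(I:C), and Ifnar1, at 0.78 (SE 0.07) there, stood at 0.07.

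In the list for sensing of double-stranded RNA, 14 of 15 genes were in the table and tested. In WT control cells 12 rose and 1 fell, and in Tlr4-/- cells after Poly(I:C) against control 11 rose and 1 fell, with medians of 1.28 and 1.54. With scaling by totals alone 11 rose and 2 fell, and 10 rose and 4 fell. Tlr3, the endosomal sensor, stood at 11.4 and 11.3 CPM in WT untreated, 88.8 and 106 in WT control, 10.5 and 11 in Tlr4-/- control and 166 and 195 after Poly(I:C). Ticam1, which encodes TRIF, rose by 0.75 and 1.02 in the same comparisons on the log2 scale, and Ddx58, which encodes RIG-I, by 2.82 and 3.38. Ticam2, the adaptor that links TRIF to TLR4, rose by 1.17 (SE 0.08) in WT control cells and stood at 0.12 (SE 0.08, adjusted p = 0.237, limma) for Poly(I:C) against control, which was -0.60 with scaling by totals alone. The gene that fell both times was Mavs, the mitochondrial adaptor of RIG-I, at -1.03 and -1.01, named after its values were seen.

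The feedback list held 7 tested genes, and all 7 were called higher in WT control against untreated, lower in Tlr4-/- than in WT control, and higher after Poly(I:C) against Tlr4-/- control. Usp18, the protease that removes ISG15 and dampens the receptor, changed by 4.58, -3.88 and 4.78 on the log2 scale in these 3 comparisons, and Isg15, the ubiquitin-like modifier, by 4.89, -4.73 and 5.44. In Tlr4-/- control against untreated cells 4 of the 7 were called higher, among them Usp18 at 1.60 (SE 0.17) and Isg15 at 0.92 (SE 0.18), while Socs1 and Socs3, inhibitors of JAK signalling, stood at 0.25 (adjusted p = 0.4) and -0.10 (adjusted p = 0.582, limma). Isg15 was not called without Tlr4-/- control replicate 2 (adjusted p = 0.0668) or Tlr4-/- untreated replicate 1 (adjusted p = 0.0515).

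The 20 other antiviral effectors moved in the same directions as the IFIT genes in the large comparisons. All 20 were called higher in WT control against untreated, with a median of 2.86, lower in Tlr4-/- than in WT control, with a median of -2.95, and higher after Poly(I:C) against control, with a median of 3.53. In Tlr4-/- control against untreated cells 8 of the 20 were called higher and 1 lower, with a median of 0.45, whereas 5 of 5 IFIT genes were called higher there with a median of 1.31. Mx1 and Mx2, antiviral GTPases, stood at 1.30 (SE 0.19) and 1.40 (SE 0.22) in that comparison, and Oas1a and Oas2, which make 2′-5′ oligoadenylates, at 0.35 (adjusted p = 0.0698) and 0.44 (adjusted p = 0.164, limma). The gene that fell was Ifitm3, a membrane protein that blocks viral entry, at -0.59 (SE 0.13), named after its values were seen and not called without Tlr4-/- control replicate 1 (adjusted p = 0.09) or Tlr4-/- untreated replicate 2 (adjusted p = 0.0873). The difference between the IFIT genes and this list was not tested.

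The RNA cap that IFIT1 reads and the initiation factor eIF3 were covered by lists of their own. Of 9 genes for cap methylation and cap binding, 6 were called higher in WT control against untreated and 5 higher and 1 lower after Poly(I:C) against control, with medians of 0.47 and 0.36. Cmtr1, the methyltransferase that adds the ribose mark that caps bound by IFIT1 lack, rose by 1.67 (SE 0.07) and 1.86 (SE 0.07). It stood at 99.5 and 102 CPM in WT untreated, 316 and 327 in WT control, 99.4 and 110 in Tlr4-/- control and 366 and 395 after Poly(I:C). Of the 14 subunits of eIF3, the initiation factor that IFIT proteins bind, 4 were called higher and 1 lower in WT control cells and 1 higher and 2 lower after Poly(I:C), with medians of 0.03 and 0. With scaling by totals alone the cap list had 3 higher and 2 lower in WT control and 1 higher and 6 lower after Poly(I:C), and eIF3 had 1 higher and 10 lower, and 0 higher and 13 lower. With the deposited scaling kept the cap list had 8 higher and 0 lower, and 7 higher and 1 lower, and eIF3 had 6 higher and 0 lower, and 8 higher and 0 lower. With totals alone the cap list's medians were -0.07 and -0.35 and the eIF3 medians -0.50 and -0.70, beside -0.52 and -0.76 over all tested genes, so that the direction of these counts and medians follows the scaling.

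**Figure D5:**
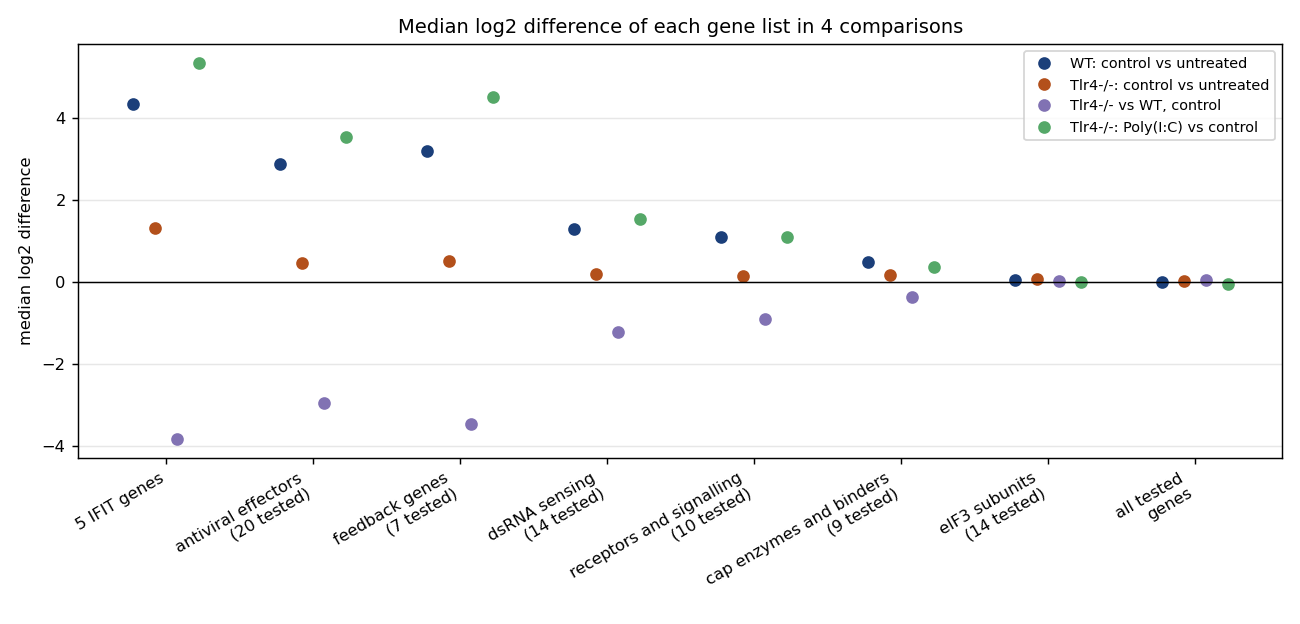
Median log2 difference of the 5 IFIT genes, of 6 pathway lists and of all tested genes in 4 comparisons. The IFIT median is 4.34 in WT control and 1.31 in Tlr4-/- control against untreated cells, and the eIF3 medians lie near that of all tested genes.

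The tested genes whose profile over the 5 group means was most like that of the family were found by the root mean square distance between centred log2 profiles, among 13166 genes that are no members. In order of likeness they were Mx1, Tnfsf10, Usp18, Cd40, Tnn, Mx2, Acod1, Iigp1, Ifi44 and Isg15, at distances of 0.112 to 0.298. Tnn averaged 0.0165 CPM in WT untreated, 0 in Tlr4-/- untreated and 0.164 in Tlr4-/- control. Its profile in these groups is thus set in part by the 0.1 added before taking logs. Mx1, the nearest, stood at 38.8 ± 2.23 (SD, n = 2) CPM in WT untreated, 25 ± 3.71 in Tlr4-/- untreated, 987 ± 225 in WT control, 62.3 ± 17.7 in Tlr4-/- control and 2430 ± 92.4 after Poly(I:C). Acod1, the enzyme that makes itaconate, was the most abundant of the 10, at 201 ± 1.88 CPM in WT untreated, 7940 ± 381 in WT control and 351 ± 7.31 in Tlr4-/- control. None of the 10 lies on chromosome 19. By the same measure Ifit1 lay at 0.086 from the family mean, Ifit2 at 0.241, Ifit3b at 0.332, Ifit3 at 0.400 and Ifit1bl1 at 0.891. Mx1 thus lay nearer to the mean than 4 of the 5 members, but it was picked as the nearest of 13166 genes.

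Within groups, the library numbered 2 was higher than the library numbered 1 in all 5 groups for Ifit1, Ifit2, Ifit3 and Ifit3b, and in 4 of 5 for Ifit1bl1. Of all tested genes 8.84% were higher in library 2 in every group and 7.68% lower. What the numbers stand for is not given in the labels.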

How the data were processed

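RNA of 10 BMDM libraries (TruSeq stranded mRNA kit, per the labels' protocols) was analysed. Tools listed in the submitters' processing notes are STAR (2.4.0d), RSEM (1.2.12), Trim Galore (0.2.8) and DESeq2. The authors deposited rescaled, rounded read signal per gene, and rlog values in log2 units. The signal is not raw counts: in 6 libraries some whole numbers from 1 to 50 never occur. Of 45318 identifiers, 44585 matched a symbol. Signal was divided by the library total and a TMM factor (trimming 30% of M values, 5% of A values). The test needed a value of 10 or more in 2 libraries. limma 3.58.1 (R 4.3.3) with trend was fitted to log2(CPM + 0.1) of all 10 libraries with 1 coefficient a group, and the call threshold was 0.05 after Benjamini-Hochberg adjustment over all tested genes. Differences are on that scale and understate low genes' changes; folds are ratios of mean CPM. The script was tested on simulated data. Depth in reads is unknown, so no counting intervals are given. The members and lists were chosen with earlier results of these data known. Named genes were the members, Ifit1bl2, Tlr4, up to 4 genes a list in the order written and the 10 most alike in profile. Alternatives were other scalings, pseudocounts, filters and fits, and each library left out.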

Additional observations from a re-analysis of the deposited data

Results flagged for a closer look

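The response to the control medium differed between the genotype labels for all 5 IFIT genes and for Ifit1bl2, by the interaction term of the limma fit. Tlr4-/- minus WT, on the log2 scale, it was -3.11 for Ifit1, -4.17 for Ifit1bl1, -3.28 for Ifit2, -2.91 for Ifit3, -2.88 for Ifit3b and -2.27 for Ifit1bl2. In all 6 genes both WT control libraries lay above both Tlr4-/- control libraries, as for 39.5% of all tested genes. The summed neutrophil, dendritic, T and NK and stromal markers were also higher in the WT control libraries, and their part in this difference was not tested. Groups of 2 libraries are too small for a check of outlying samples.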

How the results depend on the processing

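In 6 of the 8 comparisons the share of IFIT genes called stayed within 1.5 times its value in all 22 alternatives. Against untreated WT cells, untreated Tlr4-/- cells had 0% of members called, and 80% (4 of 5) with the replicate number as a block. Same-numbered libraries deviated together with r = 0.01 to 0.32 over 10 pairs of groups, of which 6 were over 0.1. Between groups of the same genotype label r was 0.17 to 0.32, and between groups of different labels 0.01 to 0.11. Whether the numbers pair libraries within a genotype is thus not settled, and the main fit treats all libraries as unpaired. The block used was shared by both genotypes, and none within each genotype was fitted. The shared block lost no member's call elsewhere. For Poly(I:C)-treated Tlr4-/- against WT control cells, 60% to 100% were called with 1 library left out, Ifit2 and Ifit3 being lost without Poly(I:C) replicate 2 or WT control replicate 1. Where 1 library of an arm was left out, the lone one was assumed to vary like the other groups. No member changed sign in any alternative, and with Ifit3 and Ifit3b, and Ifit1 and Ifit1bl1, summed, the 3 resulting values were called in the same comparisons as the 5 genes. Scaling by totals alone moved the median of all genes to -0.52 for WT control against untreated and to -0.76 for Poly(I:C) against control; relative to it the members stood at 4.09 to 6.53 and 4.74 to 6.76 (4.11 to 6.54 and 4.77 to 6.79 before). Signs that changed were those of Ticam2 after Poly(I:C) (-0.60 by totals alone), of Tlr4 in control medium (0.37 by totals alone, -0.25 to 0.02 with 1 library left out) and of Ifit1bl2 in Tlr4-/- control against untreated cells (-0.22 to 0.47 with 1 library left out). Ifna2, near 0 in those libraries, stood at 0 to 0.38 for WT control against untreated and -0.38 to 0 for Tlr4-/- against WT control. Of the counts over the other lists, 130 of 1344 moved by over 1.5 times. The cause of these changes was not tested. With 2 libraries a group and an unknown read depth, differences below the spread shown could not be detected.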
